A study of Homo sapiens with 24 samples.

Results

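The response to MPP+ was measured in cells labelled SH-SY5Y, a human neuroblastoma line used as a model of dopaminergic neurons, that carry the control construct of an overexpression experiment (oeNC), in 6 of the 24 libraries of the series. The 3 oeNC_MPP libraries came from oeNC cells given 0.5 mM MPP+ for 24 h, and the 3 oeNC libraries from oeNC cells without MPP+; no vehicle is named. The second control line of the series, which carries a scrambled short hairpin RNA, was sampled in the same way in 3 libraries with MPP+ (shScramble_MPP) and 3 without (shScramble), and is used here only to set the response beside another. All of these cells carry a construct, and the labels name no clone. They also do not say that the 3 libraries of a group came from separate cultures, so the spread behind each p-value may be technical. Polyadenylated RNA was sequenced, and the values are TPM, a measure of transcript abundance that is scaled for transcript length and for the total of the library. TPM keep no depth, so how deeply each library was sequenced is unknown and no interval for counting error is given.

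MPP+ is the active metabolite of the neurotoxin MPTP, and blocks complex I of the mitochondrial respiratory chain. Mitochondrial DNA encodes 13 mRNAs, all for subunits of the respiratory chain or the ATP synthase, which the polymerase POLRMT makes as long transcripts with the factors TFAM and TFB2M. Cells with impaired mitochondria can phosphorylate the translation factor eIF2, which lowers protein synthesis in general while the transcription factor ATF4 is translated more; this integrated stress response raises genes for amino acid synthesis and transport, tRNA charging and secreted factors.

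The libraries with and without MPP+ were deposited as separate tables with different sets of gene identifiers, 36741 and 63241. Treatment and table are therefore the same split of the libraries, and an effect of MPP+ cannot be told apart from one of how each table was made in any comparison of oeNC_MPP with oeNC. Only the 31524 identifiers in both tables were used, and they held over 99% of the TPM of every library. Each library was rescaled to the same total over these, and the 13587 genes that reached 1 TPM in 3 or more of the 6 libraries were tested. Per library, 12935 to 13152 genes reached 1 TPM in oeNC_MPP and 13196 to 13571 in oeNC. Replicates of a group correlated at 0.984 to 0.991.

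The label of the cells was checked against lists of marker genes. Of 10 genes of sympathetic neuroblastoma cells, 5 lay under 0.1 TPM wherever they were read, among them PHOX2A, DBH, TH and ELAVL4. Tyrosine hydroxylase (TH), which makes the dopamine precursor, reached at most 0.0400 TPM. PHOX2A, DBH and ELAVL4 were read in the libraries without MPP+ only. The other 5, HAND2, GATA3, ISL1, STMN2 and CHGA, each reached 1 TPM in at least 1 oeNC or oeNC_MPP library, GATA3 at most 5.66 TPM. None of the 10 markers reached 10 TPM, and their sum was 10.5 to 12.5 TPM in oeNC_MPP and 11.3 to 13.3 TPM in oeNC. Of 14 listed adrenergic neuroblastoma transcription factors, 9 reached the level for testing. HEK293T, a human embryonic kidney line, is also named in the growth protocol, and 7 of its 10 listed markers reached 1 TPM and 3 (KRT8, KRT18 and SIX2) reached 10 TPM; their sum was 309 to 331 TPM in oeNC_MPP and 216 to 251 TPM in oeNC. Genes of blood cells, listed because the tissue is given as bone marrow, summed to 21.0 to 28.2 TPM in oeNC_MPP and 26.6 to 37.2 TPM in oeNC, with MPO, HBB and CD3E under 0.1 TPM. Genes of mesenchymal cells summed to 17.4 to 22.1 TPM in oeNC_MPP and 21.7 to 28.4 TPM in oeNC. Of the 10 listed genes of the labelled type, 5 are thus at or near 0 and 5 are present at a low level, and the cells are called oeNC cells here. In bulk libraries, fewer cells of a type and less RNA per cell cannot be told apart.

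On the log2(TPM + 1) scale, limma called 7330 genes, 53.9% of those tested, at an adjusted p under 0.05. Of these, 2274 were higher (16.7%) and 5056 lower (37.2%) in oeNC_MPP than in oeNC. A change of 1 or more on the log2 scale was reached by 510 higher (3.75%) and 941 lower genes (6.93%). The median change of all genes tested was -0.21, and median-of-ratios scaling moved it by 0.20, to -0.01. Under that scaling 3533 genes were higher and 3395 lower, under quantile normalization 3460 and 3588, and with mitochondrial DNA-encoded and ribosomal protein genes left out 3250 and 3979. Small changes therefore depend on the scaling. Each gene group is to be set beside the median of -0.21 and beside the shares of all genes tested, 16.7% higher and 37.2% lower. Changes are given as log2 change ± SE with limma's adjusted p over all genes tested, and means ± SD are over 3 libraries. The groups did not overlap for 62.0% of genes (20.0% higher, 42.0% lower). Of the 7330 called genes, 7125 had the same sign in the shScramble cells, whose 2 groups are split between the same tables. The share with the same sign among all genes tested was not computed.

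**Figure D1:**
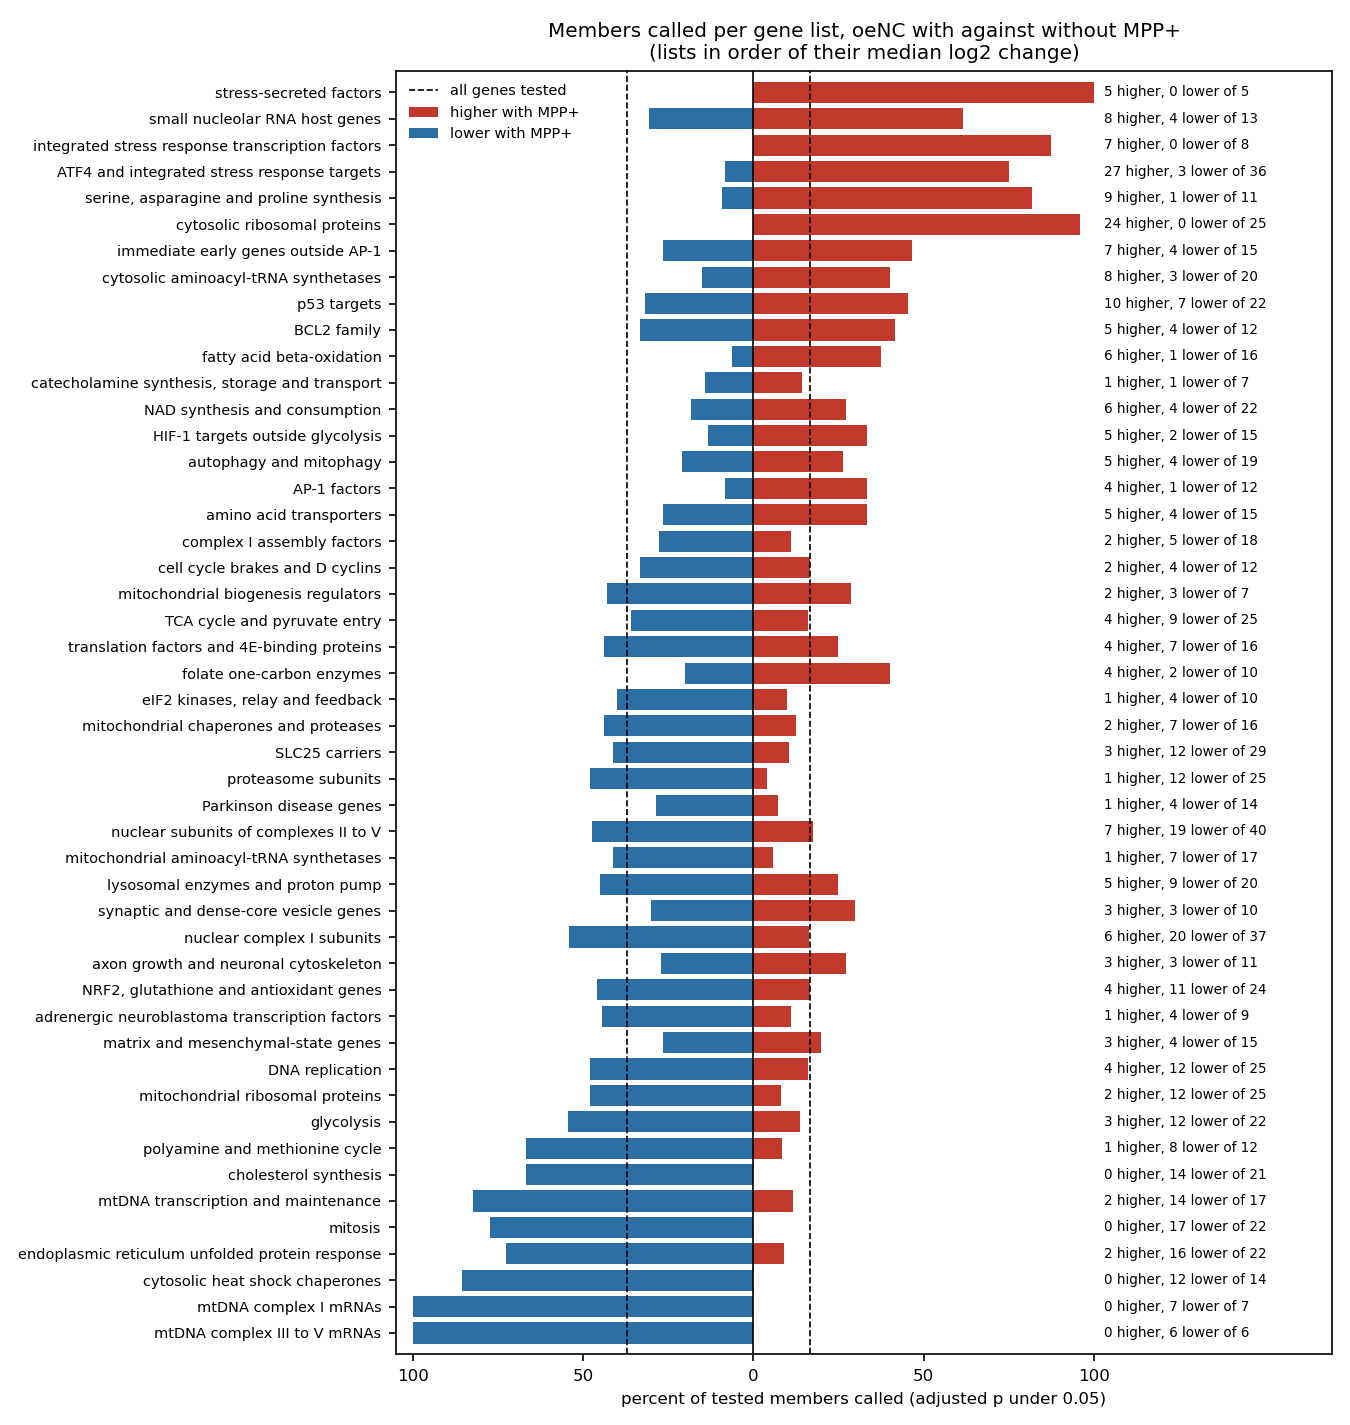
Percent of the tested members of each gene list called higher (bars to the right) or lower (bars to the left) in oeNC_MPP than in oeNC at an adjusted p under 0.05 (limma), with the counts at the right. Lists run down the page by their median log2 change, and dashed lines mark the 16.7% higher and 37.2% lower of all genes tested. Lists of the integrated stress response and that of small nucleolar RNA host genes stand at the top, and those of mitochondrial DNA-encoded mRNAs and chaperones at the bottom.

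All 13 mRNAs of mitochondrial DNA were lower in oeNC_MPP, under each scaling that kept them. Together they took 0.412, 0.396 and 0.457% of the TPM in oeNC_MPP, against 9.86, 8.63 and 7.70% in oeNC. The mean of 0.421 ± 0.032% in oeNC_MPP was 20.7 times below the 8.73 ± 1.08% in oeNC (SD, n = 3 each). In the shScramble cells the same share was 0.285 ± 0.024% with MPP+ and 4.92 ± 0.27% without, 17.3 times apart. No library of one group came near the other group.

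The fall was uneven between the mRNAs, from a log2 change of -2.09 (MT-ND6) to one of -6.14 (MT-CO3). MT-CO3, a subunit of cytochrome c oxidase (complex IV), had 126, 118 and 138 TPM in oeNC_MPP, against 9843, 9013 and 8371 TPM in oeNC (log2 change -6.14 ± 0.08, adjusted p = 1.29e-10). MT-CYB, the cytochrome b of complex III, had 33.4, 31.9 and 41.3 TPM in oeNC_MPP, against 2697, 2333 and 1951 TPM in oeNC (log2 change -5.99 ± 0.13, adjusted p = 2.74e-09). MT-ND3, a complex I subunit, had 324, 363 and 377 TPM in oeNC_MPP, against 25426, 22307 and 22084 TPM in oeNC (log2 change -6.03 ± 0.08, adjusted p = 1.29e-10). These 3 mRNAs were 71.2, 65.5 and 65.6 times lower in the mean of oeNC_MPP. At the other end stood 2 complex I subunits. MT-ND2 had 394, 359 and 414 TPM in oeNC_MPP, against 2261, 2194 and 1721 TPM in oeNC (log2 change -2.39 ± 0.10, adjusted p = 3.05e-07). MT-ND6, the only one of the 13 mRNAs made from the light strand, had 242, 216 and 324 TPM in oeNC_MPP, against 1208, 1225 and 893 TPM in oeNC (log2 change -2.09 ± 0.16, adjusted p = 1.11e-05). The lowest oeNC library still stood well above the highest oeNC_MPP library in both.

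Between these ends lay MT-ND1 at -2.57, MT-CO1 at -3.14, MT-ND4L at -3.48, MT-ND4 at -4.10, MT-ATP8 at -4.14, MT-ATP6 at -4.49, MT-CO2 at -4.92 and MT-ND5 at -5.25. MT-ATP8 overlaps MT-ATP6 and MT-ND4L overlaps MT-ND4, so how reads were divided within these pairs is uncertain. MT-ND6 comes from the other strand than the 12 heavy-strand mRNAs. Whether counting used the strand is not given, so the value of MT-ND6 is uncertain too. Among the heavy-strand mRNAs the smallest fall was that of MT-ND2, at -2.39. Heavy-strand transcripts start ahead of the tRNA gene MT-TF. Over the 12 heavy-strand mRNAs, the log2 change had a Pearson correlation of -0.74 and a Spearman correlation of -0.61 with the distance of the gene from MT-TF. That is a description over genes that share the same 6 libraries and partly the same transcript. The nearest, MT-ND1, begins 2730 bases from MT-TF and the farthest, MT-CYB, 14170 bases, while MT-ND4L and MT-ND4 lay above their neighbours. The shScramble cells gave -0.71 and -0.59 for the same 2 correlations. TPM sum to a fixed total, so a smaller share of these mRNAs leaves a larger one to the other genes. With the mitochondrial DNA-encoded genes left out before rescaling there were 1843 genes called higher and 6268 lower, with a median change of -0.32.

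**Figure D2:**
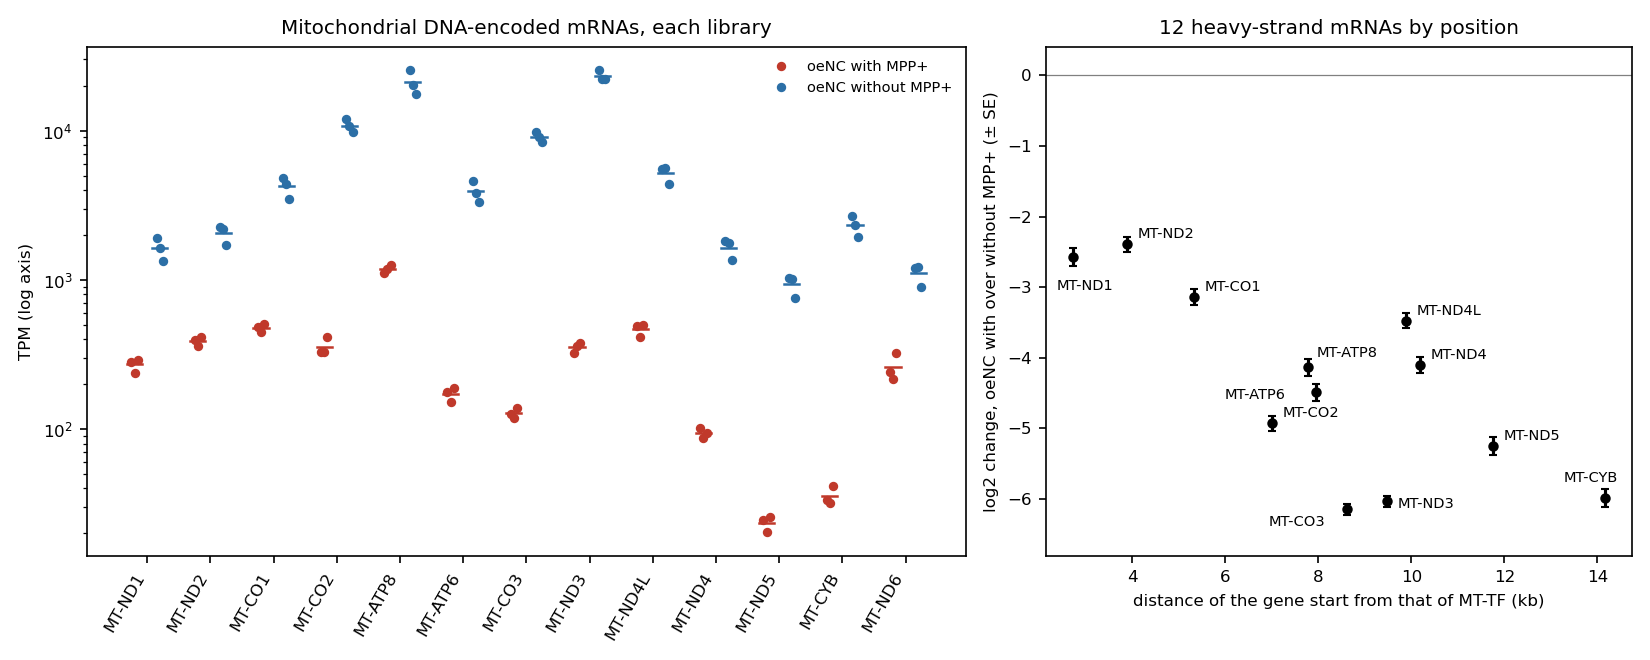
Left, TPM (log axis) of the 13 mRNAs of mitochondrial DNA in each library, oeNC_MPP to the left of oeNC for each gene, with the mean of 3 libraries as a line; the groups are apart for every mRNA. Right, log2 change of oeNC_MPP over oeNC (± SE) of the 12 heavy-strand mRNAs against the distance of the gene start from that of MT-TF in kb, with a range of -2.39 (MT-ND2) to -6.14 (MT-CO3).

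Nuclear genes that transcribe and maintain mitochondrial DNA were mostly lower: 14 of 17 tested fell and 2 rose, with a median of -0.56. Under median-of-ratios scaling 8 of the 17 fell and 2 rose. TFAM, which packages mitochondrial DNA and opens its promoters, had 5.46, 6.17 and 5.38 TPM in oeNC_MPP, against 11.9, 16.6 and 12.9 TPM in oeNC (log2 change -1.14 ± 0.15, adjusted p = 2.55e-04). TFB2M, the initiation factor that pairs with POLRMT, had 3.86, 5.18 and 4.41 TPM in oeNC_MPP, against 9.05, 14.8 and 10.7 TPM in oeNC (log2 change -1.17 ± 0.19, adjusted p = 7.62e-04). The 2 groups did not overlap for either gene. The members that rose were TFB1M, a methyltransferase of mitochondrial ribosomal RNA (log2 change 0.59), and TOP1MT, the mitochondrial topoisomerase (log2 change 0.46). PPARGC1A, the coactivator PGC-1alpha, was near 0 in all 6 libraries, at most 0.160 TPM, and was not tested. Its relatives PPARGC1B and PPRC1 fell (log2 changes -1.19 and -0.87).

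The nuclear-encoded subunits of the same complexes changed in both directions and by less. Among the 37 from complex I, 6 rose and 20 fell, with a median of -0.23. This balance depends on the scaling: 7 were higher and 10 lower under median-of-ratios scaling (median 0.00), and 12 higher and 9 lower under quantile normalization (median 0.06). NDUFS4 and NDUFS1, subunits of the arm that takes electrons from NADH, rose (65 against 34.1 TPM and 52.7 against 28.1 TPM in oeNC_MPP against oeNC, log2 changes 0.93 and 0.89). NDUFA5, of the same arm, fell (9.72 against 24.6 TPM, log2 change -1.25), as did NDUFC1 (-0.99). Of 40 subunits of complexes II to V, 7 rose and 19 fell, with a median of -0.20, against 13 higher and 13 lower (median 0.04) under median-of-ratios scaling and 15 higher and 11 lower under quantile normalization. UQCRH of complex III rose most (log2 change 0.71). Cytochrome c (CYCS), the electron carrier between complexes III and IV, fell most, with 53.5, 57.3 and 38.9 TPM in oeNC_MPP, against 132, 182 and 156 TPM in oeNC (log2 change -1.64 ± 0.16, adjusted p = 4.18e-05). ATP5MC1, a ring subunit of the ATP synthase, fell as well (416 against 1025 TPM in oeNC_MPP against oeNC, log2 change -1.30). Of 16 mitochondrial chaperones and proteases, 2 were higher and 7 lower (5 and 5 under median-of-ratios scaling). Their median of -0.17 was near the -0.21 of all genes tested, of which 16.7% were higher and 37.2% lower. Within this list the matrix protease LONP1 rose (log2 change 0.87 ± 0.09, adjusted p = 9.08e-05) while the chaperonin pair HSPD1 and HSPE1 fell (-0.72 and -1.17).

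Genes of the integrated stress response rose together. Of 8 transcription factors of this response, 7 rose and none fell, with a median of 1.34. DDIT3, the factor CHOP, had 163, 162 and 152 TPM in oeNC_MPP, against 9.85, 12.7 and 10.7 TPM in oeNC (log2 change 3.73 ± 0.10, adjusted p = 1.68e-08). NUPR1, a small stress-induced transcription regulator, had 41.5, 45.3 and 54.9 TPM in oeNC_MPP, against 0.842, 0.362 and 0.683 TPM in oeNC (log2 change 4.89 ± 0.16, adjusted p = 5.68e-08). ATF3, which is induced by ATF4, had 309.7, 228 and 168 TPM in oeNC_MPP, against 26, 23 and 26.9 TPM in oeNC (log2 change 3.13 ± 0.18, adjusted p = 2.18e-06). The spread of ATF3 within oeNC_MPP was wide, but its lowest library lay far above every oeNC library. CEBPB, CEBPG and JDP2, partners of ATF4 and of AP-1 factors, rose by a similar amount (1.26, 1.27 and 1.41). ATF4, which is regulated mainly in translation, rose little, with 1000.5, 927 and 907 TPM in oeNC_MPP, against 687, 703 and 698 TPM in oeNC (log2 change 0.44 ± 0.06, adjusted p = 3.20e-04). ATF5 had 14.7, 13.7 and 17.7 TPM in oeNC_MPP, against 13.4, 13.9 and 13.1 TPM in oeNC and was not called (log2 change 0.17 ± 0.12, adjusted p = 0.261); its groups overlapped. In the shScramble cells ATF5 differed by 1.22, and the difference between the lines did not pass the test (-1.05 ± 0.19, adjusted p = 0.0634).

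Of 36 targets of ATF4 and of this response, 27 rose and 3 fell, with a median of 0.94, and 30 rose under median-of-ratios scaling. The list shares members with other lists, so their counts are not separate. Among these are GDF15 and FGF21 of the secreted factors, and ASNS and ALDH18A1 of the serine, asparagine and proline enzymes. TRIB3, a pseudokinase that restrains ATF4 signalling, had 151, 168 and 186 TPM in oeNC_MPP, against 18.9, 14.7 and 17.8 TPM in oeNC (log2 change 3.22 ± 0.11, adjusted p = 8.20e-08). CHAC1, which degrades glutathione, had 27.6, 38.2 and 52 TPM in oeNC_MPP, against 3.36, 2.68 and 4.43 TPM in oeNC (log2 change 3.14 ± 0.23, adjusted p = 7.56e-06). DDIT4, an inhibitor of mTORC1, had 282, 284 and 358 TPM in oeNC_MPP, against 41.2, 36.3 and 42.8 TPM in oeNC (log2 change 2.90 ± 0.11, adjusted p = 1.05e-07). Each of these 3 genes was many times higher in every oeNC_MPP library than in any oeNC library. SESN2, a leucine sensor that also restrains mTORC1, rose less, with 80.2 ± 15.3 TPM in oeNC_MPP and 29.1 ± 3.0 TPM in oeNC (log2 change 1.42). The members that fell were HERPUD1, a factor of endoplasmic reticulum degradation (-0.48), SLC38A2, a carrier of small neutral amino acids (-0.64), and ALDH18A1, the first enzyme of proline synthesis (-0.40, not called under median-of-ratios scaling).

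The feedback of the pathway was uneven. PPP1R15A, the inducible subunit that directs a phosphatase to eIF2, had 135, 113 and 105 TPM in oeNC_MPP, against 23.1, 22.2 and 25.5 TPM in oeNC (log2 change 2.27 ± 0.11, adjusted p = 5.25e-07). The other 9 tested genes of eIF2 kinases, relay and feedback held 4 that fell, and none of the 4 kinases EIF2AK1 to EIF2AK4 rose. None of these falls was called under median-of-ratios scaling or quantile normalization, where the 10 genes had 2 higher and 0 lower. DELE1, which relays mitochondrial stress to the kinase EIF2AK1, was not called. The 10 genes together had a median of -0.15, which became 0.05 under median-of-ratios scaling.

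All 5 tested secreted factors of mitochondrial and integrated stress rose, with a median of 2.10. GDF15, a hormone that acts on the hindbrain to reduce food intake, had 21.8, 19.5 and 24.1 TPM in oeNC_MPP, against 0.702, 0.362 and 0.613 TPM in oeNC (log2 change 3.87 ± 0.15, adjusted p = 1.49e-07). INHBE, an activin subunit, had 16, 16.7 and 19.3 TPM in oeNC_MPP, against 0.19, 0.342 and 0.372 TPM in oeNC (log2 change 3.82 ± 0.15, adjusted p = 1.30e-07). The means of GDF15 and INHBE were 39 and 57.6 times those in oeNC, which lay under 1 TPM, where small absolute amounts make large ratios. STC2, stanniocalcin 2, was already present in oeNC and had 70.7 ± 7.55 TPM in oeNC_MPP and 21.9 ± 1.71 TPM in oeNC (log2 change 1.64). FGF21, another secreted metabolic hormone, averaged 3.64 TPM in oeNC_MPP and 0.06 TPM in oeNC (log2 change 2.10), and ADM2, a peptide of the calcitonin family, changed by 1.33. The sixth listed factor, INHBA, did not reach the level for testing.

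**Figure D3:**
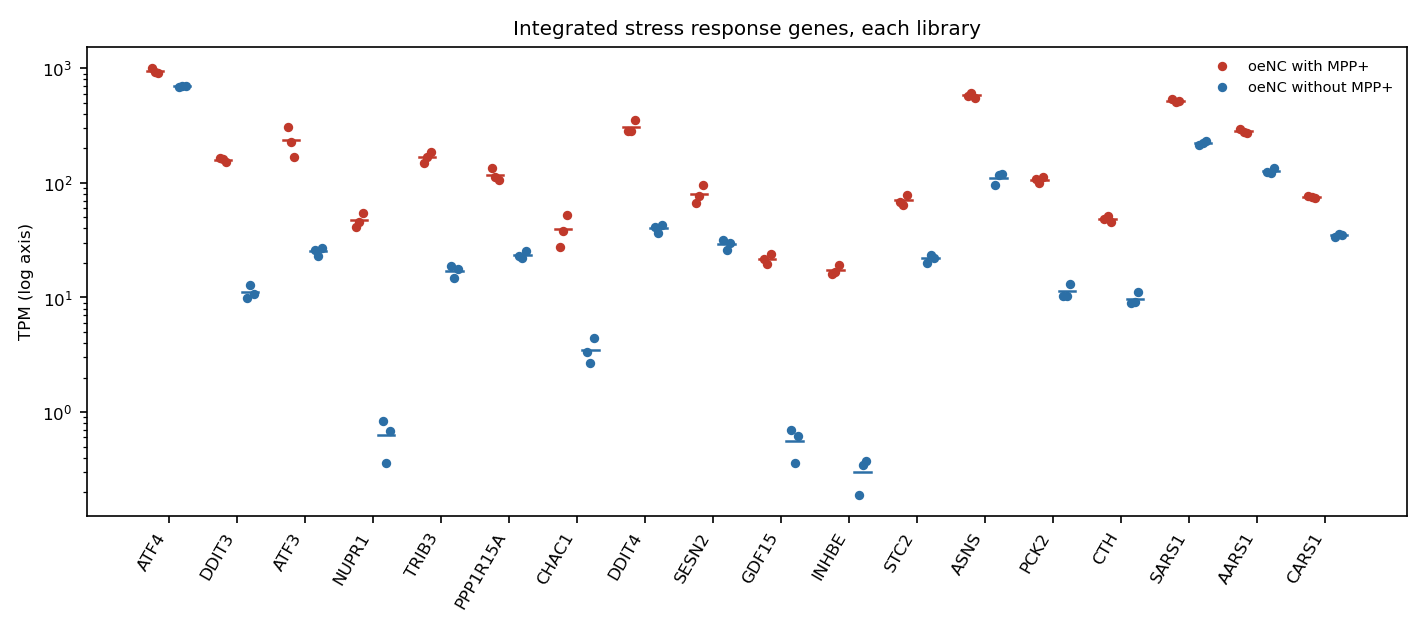
TPM (log axis) of 18 genes of the integrated stress response in each library, oeNC_MPP to the left of oeNC for each gene, with the mean of 3 libraries as a line. Every gene shown was higher in all oeNC_MPP libraries than in all oeNC libraries, ATF4 by the least.

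The C/EBP-ATF response element, which ATF4 binds together with C/EBP factors, was searched as TGATGNAA on both strands in RefSeq promoters of 300 bases (250 before to 50 after the gene start, GRCh38.p14). It occurred in 1003 of 27305 promoters, or 3.67%. Among the response targets, 6 of the 27 matched to a promoter held it (CHAC1, FGF21, HERPUD1, SLC3A2, SLC7A1 and ASNS), and of these HERPUD1 fell and SLC7A1 was not called. Among cytosolic aminoacyl-tRNA synthetases, 6 of 16 held it, of which AARS1 and CARS1 rose and IARS1, MARS1, NARS1 and TARS1 were not called. Of the response factors, 1 of 7, ATF3, held it. TRIB3, DDIT3, PCK2 and SARS1, which rose strongly too, held none in this window. A match describes these letters and shows neither binding nor a cause. The promoters of ASNS (chr7:97872359-97872658, minus strand) and CHAC1 (chr15:40953221-40953520, plus strand), 2 targets that rose strongly, are printed with the match in capitals; in CHAC1 it reads on the opposite strand.
ASNS: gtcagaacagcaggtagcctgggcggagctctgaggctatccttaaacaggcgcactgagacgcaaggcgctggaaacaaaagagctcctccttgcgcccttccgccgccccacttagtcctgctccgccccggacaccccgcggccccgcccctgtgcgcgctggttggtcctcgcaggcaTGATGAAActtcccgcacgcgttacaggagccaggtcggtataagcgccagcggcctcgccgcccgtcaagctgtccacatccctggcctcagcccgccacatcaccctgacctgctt
CHAC1: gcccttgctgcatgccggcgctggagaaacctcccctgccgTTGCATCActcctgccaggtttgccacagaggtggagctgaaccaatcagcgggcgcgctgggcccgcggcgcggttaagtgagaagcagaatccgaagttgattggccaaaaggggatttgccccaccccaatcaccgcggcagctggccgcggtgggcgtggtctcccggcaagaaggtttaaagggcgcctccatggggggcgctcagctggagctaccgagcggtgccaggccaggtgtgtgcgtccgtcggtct
The match begins at position -68 from the gene start in ASNS and at -209 in CHAC1.

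Enzymes of serine, asparagine and proline synthesis rose in 9 of 11 cases, with a median of 0.54, and 1 fell. ASNS, asparagine synthetase, whose promoter is printed with the stress response targets, had 578, 606 and 556 TPM in oeNC_MPP, against 96.6, 118 and 119 TPM in oeNC (log2 change 2.38 ± 0.09, adjusted p = 1.07e-07). CTH, which makes cysteine from cystathionine, had 48.1, 51.1 and 45.2 TPM in oeNC_MPP, against 8.95, 9.2 and 11.1 TPM in oeNC (log2 change 2.20 ± 0.11, adjusted p = 8.43e-07). PSAT1 of the serine pathway rose more modestly, with 271 ± 18.6 TPM in oeNC_MPP and 142 ± 23.8 TPM in oeNC (log2 change 0.94). PCK2, the mitochondrial phosphoenolpyruvate carboxykinase, had 107, 101 and 113 TPM in oeNC_MPP, against 10.3, 10.4 and 13.2 TPM in oeNC (log2 change 3.14 ± 0.11, adjusted p = 7.93e-08). All of these groups were apart. Among the 10 folate enzymes tested, 4 rose and 2 fell, with a median of -0.11 (5 higher and 1 lower, 0.12, under median-of-ratios scaling). The mitochondrial members MTHFD2 and SHMT2 were among those that rose, with MTHFD2 at 284 against 122 TPM and SHMT2 at 473 against 268 TPM in oeNC_MPP against oeNC (log2 changes 1.23 and 0.82). The thymidylate synthase TYMS, which uses folate for DNA synthesis, fell (log2 change -0.62).

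Of 20 cytosolic aminoacyl-tRNA synthetases, which charge tRNAs with amino acids, 8 rose and 3 fell, with a median of 0.25, and 13 rose and 2 fell under median-of-ratios scaling. SARS1 led with 539, 512 and 519 TPM in oeNC_MPP, against 215, 224 and 234 TPM in oeNC (log2 change 1.22 ± 0.06, adjusted p = 8.27e-07), followed by AARS1 (1.14) and CARS1 (1.08). FARSA and HARS1 fell (-0.55 and -0.53). Their mitochondrial counterparts had 1 higher and 7 lower of 17, with a median of -0.22, but 5 higher and 6 lower (-0.02) under median-of-ratios scaling, and EARS2 and MARS2 fell most (-1.10 and -1.11). Amino acid transporters were mixed, 5 higher and 4 lower of 15 (7 and 3 under median-of-ratios scaling). SLC43A1 and SLC7A3, carriers of neutral and of cationic amino acids, rose (2.02 and 1.49), and SLC7A6 and SLC36A1 fell (-1.04 and -1.07).

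Cytosolic ribosomal protein genes took 45.7, 46.4 and 46.0% of the TPM in oeNC_MPP, against 32.1, 30.6 and 31.6% in oeNC. Of 82 such genes, 66 rose and 4 fell, with a median of 0.50. RPL3, a core protein of the large subunit, had 5663, 5497 and 5272 TPM in oeNC_MPP, against 2664, 2723 and 2825 TPM in oeNC (log2 change 1.00 ± 0.05, adjusted p = 1.40e-06), and RPL11, which also binds MDM2, changed by 1.05. Both groups of libraries were tight for RPL3 and did not overlap. The listed 25 had 24 higher, against 25 under median-of-ratios scaling and 16 higher and 1 lower under quantile normalization. Since TPM sum to a fixed total, a larger share of ribosomal protein genes leaves a smaller one to the other genes. With mitochondrial DNA-encoded and ribosomal protein genes left out before rescaling, the median change of the genes tested was -0.07. Ribosomal protein genes have many processed pseudogenes, so the division of reads among copies is uncertain. EEF1A1, the factor that brings tRNAs to the ribosome, rose alongside (log2 change 1.03), and so did EIF4EBP1, the repressor of cap-dependent initiation and a known ATF4 target (651 ± 24.6 TPM in oeNC_MPP and 248 ± 29.4 TPM in oeNC, log2 change 1.39). The initiation scaffold EIF4G1 and the cap-binding EIF4E fell (-1.33 and -1.07), as did EIF5A (-1.17).

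Host genes of small nucleolar RNAs, spliced transcripts whose introns carry these RNAs, had 8 higher and 4 lower of 13 and a median of 1.50. GAS5 had 2998, 3116 and 3045 TPM in oeNC_MPP, against 408, 411 and 412 TPM in oeNC (log2 change 2.89 ± 0.05, adjusted p = 8.12e-10). ZFAS1 had 512, 516 and 488 TPM in oeNC_MPP, against 93.8, 108 and 99.8 TPM in oeNC (log2 change 2.32 ± 0.07, adjusted p = 3.16e-08). In both the replicates were within a narrow range and the groups far apart. SNHG7 rose too (2.06), while SNHG3 and SNHG12 fell (-1.18 and -0.60). Mitochondrial ribosomal protein genes had 2 higher and 12 lower of 25 and a median of -0.28, or 4 higher and 6 lower (-0.05) under median-of-ratios scaling.

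Chaperones fell in both the cytosol and the endoplasmic reticulum. Of 14 tested cytosolic heat shock chaperones and their regulators, 12 fell and none rose, with a median of -0.97; under median-of-ratios scaling 12 fell and 1 rose. HSPA1B, an inducible HSP70, had 71.2, 60.3 and 64.7 TPM in oeNC_MPP, against 419, 474 and 591 TPM in oeNC (log2 change -2.89 ± 0.12, adjusted p = 2.27e-07); it has a near-identical copy, HSPA1A, so the division of reads between them is uncertain. HSPH1, an HSP110 that reloads HSP70, had 9.6, 8.28 and 7.44 TPM in oeNC_MPP, against 26.2, 41.3 and 35.1 TPM in oeNC (log2 change -1.88 ± 0.17, adjusted p = 2.93e-05). HSP90AA1, the stress-inducible HSP90, had 90.7, 96.6 and 79 TPM in oeNC_MPP, against 170.3, 264 and 218 TPM in oeNC (log2 change -1.27 ± 0.15, adjusted p = 1.26e-04). The groups did not overlap for any of these genes. HSPB1 and the factor HSF1 were not called (-0.05 and 0.16).

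Of 22 genes of the unfolded protein response of the endoplasmic reticulum, 16 fell and 2 rose, with a median of -0.91, and 15 fell under median-of-ratios scaling. SDF2L1, a chaperone cofactor, had 39.1, 38.8 and 47.5 TPM in oeNC_MPP, against 172, 152 and 182 TPM in oeNC (log2 change -1.99 ± 0.10, adjusted p = 1.03e-06). HSP90B1, the HSP90 of this compartment, had 71.2, 65.6 and 49.9 TPM in oeNC_MPP, against 152, 241 and 204 TPM in oeNC (log2 change -1.65 ± 0.17, adjusted p = 7.38e-05). PDIA4, a disulfide isomerase, had 128, 121 and 125 TPM in oeNC_MPP, against 317, 384 and 361 TPM in oeNC (log2 change -1.49 ± 0.08, adjusted p = 1.28e-06). Every oeNC_MPP library was below every oeNC library in these. HSPA5 (BiP), the central chaperone of the compartment, fell (log2 change -1.04). The sensors ERN1 and ATF6 were the members that rose (0.87 and 0.48), and XBP1 was not called (-0.01). The list of this response and that of ATF4 targets share HERPUD1.

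Promoters of these genes were searched for 2 elements in the same 300-base windows, on both strands. The element of the endoplasmic reticulum response, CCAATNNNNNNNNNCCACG, occurred in 22 of 27305 promoters (0.0806%) and in 6 of 21 of the list, those of HSPA5, HSP90B1, CALR, CANX, CRELD2 and XBP1, the first 5 of which fell. The heat shock element, GAANNTTCNNGAA, occurred in 133 promoters (0.487%) and in 3 of 13 heat shock genes, those of HSPA8, CHORDC1 and DNAJA1, all of which fell. SDF2L1 held no match to the first element, and HSPH1 and DNAJB1 held none to the second. Most of both lists fell, 16 of 22 and 12 of 14 tested, so the falls do not set apart the genes with a match. Here too a match shows neither binding nor a cause. The promoters of HSPA5 (chr9:125241294-125241593, minus strand) and HSPA8 (chr11:123062087-123062386, minus strand), HSP70 proteins of the 2 compartments, are shown with the matches in capitals.
HSPA5: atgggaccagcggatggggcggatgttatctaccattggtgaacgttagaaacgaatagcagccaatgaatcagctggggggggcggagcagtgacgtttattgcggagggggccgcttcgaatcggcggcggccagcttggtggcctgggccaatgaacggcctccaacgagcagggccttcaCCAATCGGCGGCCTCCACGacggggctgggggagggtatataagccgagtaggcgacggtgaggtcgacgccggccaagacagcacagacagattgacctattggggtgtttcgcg
HSPA8: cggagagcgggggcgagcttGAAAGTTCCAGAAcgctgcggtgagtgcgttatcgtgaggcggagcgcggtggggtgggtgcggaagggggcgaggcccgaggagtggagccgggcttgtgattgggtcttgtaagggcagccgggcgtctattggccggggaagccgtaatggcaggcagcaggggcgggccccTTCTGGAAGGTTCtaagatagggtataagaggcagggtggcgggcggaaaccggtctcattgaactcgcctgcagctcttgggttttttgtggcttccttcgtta
HSPA8, the constitutive HSP70, holds 2 matches in its window and changed by -1.02. HSPA5 holds 1 match, beginning at position -66, and changed by -1.04.

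Genes of cholesterol synthesis and uptake fell in 14 of 21 tested cases and none rose, with a median of -0.55; under median-of-ratios scaling 10 fell and 1 rose. HMGCS1, the synthase at the entry of the pathway, had 9.09, 7.93 and 6.49 TPM in oeNC_MPP, against 14.9, 24.6 and 19.1 TPM in oeNC (log2 change -1.20 ± 0.19, adjusted p = 6.61e-04). Fatty acid beta-oxidation genes had 6 higher and 1 lower of 16 and a median of 0.15 (9 and 1 under median-of-ratios scaling). CPT1C and CPT1A, isoforms of the transferase for fatty acid entry into mitochondria, rose (0.90 and 0.67), and the hydratase ECHS1 fell (-0.69).

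Mitosis genes fell in 17 of 22 cases and none rose, with a median of -0.60, against 13 fallen and none risen under median-of-ratios scaling. MKI67, the Ki-67 antigen of dividing cells, had 7.54, 5.53 and 5.0 TPM in oeNC_MPP, against 15.9, 20.3 and 17.5 TPM in oeNC (log2 change -1.44 ± 0.16, adjusted p = 1.12e-04). The kinetochore protein CENPF and the spindle motor KIF11 changed by -1.02 and -1.02. DNA replication genes were more mixed, with 4 higher and 12 lower of 25 and a median of -0.28, or 7 higher and 6 lower (-0.05) under median-of-ratios scaling. The licensing factor CDT1 rose (132 ± 10.8 TPM in oeNC_MPP and 69 ± 9.15 TPM in oeNC, log2 change 0.93) while GINS1 and POLA1, of the replicative helicase and of the primase complex, fell (-0.97 and -1.06). Of 12 cell cycle brakes and D cyclins, 2 rose and 4 fell, with a median of -0.08, and 2 rose and 2 fell under median-of-ratios scaling. The inhibitor of cyclin-dependent kinases CDKN1A (p21) was the member that rose most (log2 change 0.78 ± 0.15, adjusted p = 0.00239).

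Glycolysis genes had 3 higher and 12 lower of 22, with a median of -0.45, and 7 higher and 10 lower under median-of-ratios scaling. PKM, pyruvate kinase, had 699, 683 and 773 TPM in oeNC_MPP, against 1594, 1429 and 1594 TPM in oeNC (log2 change -1.10 ± 0.07, adjusted p = 4.01e-06). PGAM1 and TPI1, further enzymes of the pathway, fell as well (-0.89 and -0.78). The glucose transporter SLC2A3 (GLUT3) had 18.9, 19.6 and 26.8 TPM in oeNC_MPP, against 6.0, 6.17 and 7.33 TPM in oeNC (log2 change 1.59 ± 0.15, adjusted p = 4.81e-05), the largest rise of the list. ENO2 rose (log2 change 0.98). TXNIP, a glucose-responsive inhibitor of thioredoxin and glucose uptake, had 8.77, 8.87 and 9.52 TPM in oeNC_MPP, against 7.99, 10.0 and 9.53 TPM in oeNC and was not called (log2 change -0.01 ± 0.13, adjusted p = 0.939); its sign depends on the scaling, since it was 0.20 under median-of-ratios scaling. The hypoxia target VEGFA rose (1.05), in a list of 15 HIF-1 targets with 5 higher and 2 lower.

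The methionine and polyamine cycle had 8 lower and 1 higher of 12 genes, with a median of -0.48 (5 lower and 2 higher under median-of-ratios scaling). AMD1, which makes the aminopropyl donor of polyamines, had 9.42, 10.5 and 7.28 TPM in oeNC_MPP, against 45.8, 58.8 and 48.1 TPM in oeNC (log2 change -2.37 ± 0.15, adjusted p = 2.97e-06). MAT2A, which makes S-adenosylmethionine, had 21.6, 30.2 and 41.3 TPM in oeNC_MPP, against 118, 142 and 131 TPM in oeNC (log2 change -2.08 ± 0.19, adjusted p = 3.49e-05). SAT1, the enzyme that acetylates polyamines for breakdown and export, had 161, 116 and 83 TPM in oeNC_MPP, against 20.8, 21.4 and 18.1 TPM in oeNC (log2 change 2.47 ± 0.20, adjusted p = 1.54e-05). AMD1 and MAT2A were lower in every oeNC_MPP library than in any oeNC library, and SAT1 was higher. MAT2A changed by -0.73 in the shScramble cells, but the difference between the lines did not pass the test (-1.35 ± 0.25, adjusted p = 0.0641).

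**Figure D4:**
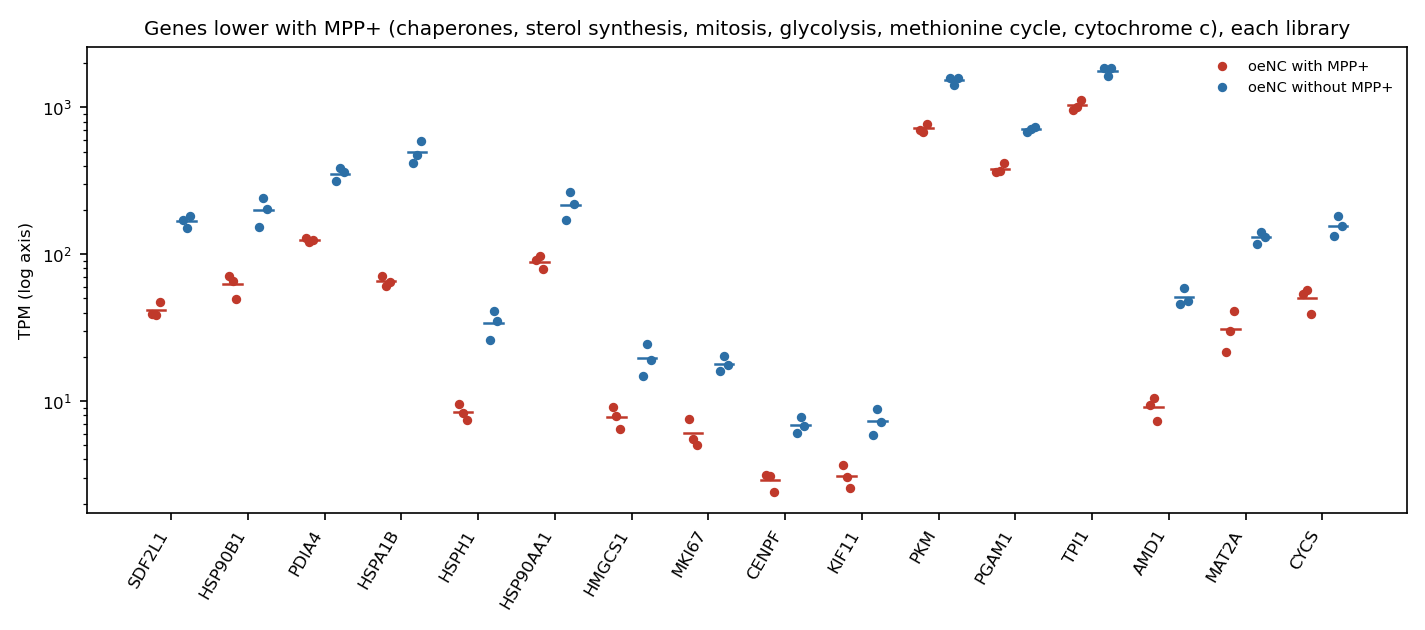
TPM (log axis) of 16 genes that were lower with MPP+ in each library, oeNC_MPP to the left of oeNC for each gene, with the mean of 3 libraries as a line. The groups do not overlap for any gene shown, with HSPA1B and AMD1 furthest apart.

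Targets of p53 had 10 higher and 7 lower of 22 tested (median 0.22), and 12 higher and 1 lower under median-of-ratios scaling. GADD45A, a growth arrest gene that ATF4 and CHOP also induce, had 97.4, 76.1 and 67.6 TPM in oeNC_MPP, against 11.2, 15.8 and 12.8 TPM in oeNC (log2 change 2.51 ± 0.16, adjusted p = 3.18e-06). Of the BCL2 family, 5 of 12 rose and 4 fell: the pro-apoptotic PMAIP1 (NOXA) and BBC3 (PUMA) rose (1.27 and 1.13), and the pro-survival MCL1 and the pro-apoptotic BCL2L11 (BIM) fell (-0.87 and -0.94). AP-1 factors had 4 higher and 1 lower of 12, with JUN at 253, 165 and 138 TPM in oeNC_MPP, against 69.1, 73.3 and 76.8 TPM in oeNC (log2 change 1.29 ± 0.18, adjusted p = 4.16e-04). JUN, ATF3, DUSP1 and CCN1, immediate early genes set together after their values were seen, were highest in oeNC_MPP replicate 1 and lowest in oeNC_MPP replicate 3. The phosphatase DUSP1, for instance, had 71.8, 44.3 and 31.2 TPM in oeNC_MPP, against 19.3, 16.9 and 19.3 TPM in oeNC (log2 change 1.28 ± 0.24, adjusted p = 0.00192). Genes of redox defence under NRF2 showed 4 higher and 11 lower of 24, with a median of -0.24, and the balance turned to 7 higher and 5 lower (-0.01) under median-of-ratios scaling and to 9 higher and 5 lower under quantile normalization. TXNRD1, thioredoxin reductase, rose (not called without a filter on low values) although its groups overlapped, with 84.8, 90.0 and 56.9 TPM in oeNC_MPP, against 34.3, 57.2 and 46.2 TPM in oeNC (log2 change 0.74 ± 0.20, adjusted p = 0.0131), and the metallothionein MT1X fell (-1.41).

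Of 17 genes linked to Parkinson disease, 14 were tested, 1 rose and 4 fell, with a median of -0.20 (5 higher and 3 lower, 0.04, under median-of-ratios scaling). The lysosomal ATPase ATP13A2 fell (-0.80), and the phospholipase PLA2G6 rose (0.78). LRRK2 did not reach the level for testing. Of the genes of catecholamine synthesis, storage and transport, 7 of 15 could be tested, with 1 higher and 1 lower.

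Genes of NAD synthesis and consumption had 6 higher and 4 lower of 22 tested, with a median of 0.11, and 11 higher and 2 lower (0.30) under median-of-ratios scaling. NMRK1 and NMNAT1, which make NAD+ from nicotinamide riboside and its mononucleotide, rose (1.16 and 0.93), and the nuclear consumer PARP1 fell (-0.44, not called under quantile normalization). SLC25A51, the carrier of NAD+ into mitochondria, is encoded by the overexpression construct of the series under its older symbol MCART1, and oeNC cells carry the control. It had 7.88, 8.16 and 9.46 TPM in oeNC_MPP, against 29.6, 35.8 and 29.9 TPM in oeNC (log2 change -1.78 ± 0.12, adjusted p = 5.63e-06), a mean 3.74 times lower with MPP+. An exact permutation test (two-sided, on TPM) gave p = 0.1, which no split of 3 against 3 libraries can go below. In the shScramble cells it had 6.88, 8.4 and 8.49 TPM in shScramble_MPP, against 10.6, 11.1 and 11.3 TPM in shScramble. The libraries of both lines overlapped with MPP+, and those of oeNC lay above those of shScramble without it, by 2.89 times in the mean of 3 libraries each. Why the libraries labelled oeNC, a control, hold more of the gene of the overexpression construct than the other control was not tested. The oeMCART1 libraries, which carry that construct, averaged 938 TPM with MPP+ and 687 TPM without. For this gene, the size of the change in oeNC cells and the difference between the lines both depend on the level in the libraries labelled oeNC without MPP+. In the shScramble cells SLC25A51 was lower with MPP+ too, by a smaller amount (log2 difference -0.43), and the groups did not overlap. Of 29 tested carriers of the SLC25 family, 3 rose and 12 fell, set beside 37.2% lower among all genes tested, and under median-of-ratios scaling 7 rose and 9 fell. SLC25A44 fell next most after SLC25A51 (-1.24).

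Among the largest changes outside these lists, several are uncertain. ARMC2-AS1, S100P and H2AC19 were listed at 0 in all oeNC libraries and lay between 15.1 and 53.9 TPM in oeNC_MPP, and all 3, with HEXA-AS1 and FUT1, were under 0.5 TPM in all 12 libraries of the series without MPP+. PCBP1-AS1 was the reverse, under 0.5 TPM in all 12 libraries with MPP+ and at 34.0, 24.4 and 25.0 TPM in oeNC. TUBA1B-AS1 had 12.8, 9.12 and 11.8 TPM in oeNC_MPP, against 573, 547 and 671 TPM in oeNC. ARMC2-AS1, HEXA-AS1, PCBP1-AS1 and TUBA1B-AS1 carry the names of antisense transcripts, H2AC19 is a histone gene, and S100P and FUT1 are protein-coding. Whether counting used the strand is not given, and the cause of these values was not tested. In all, 38 called genes were near 0 in every library with MPP+ and 20 in every library without. Called shares differed by class: 26.2% of 542 antisense genes were higher and 35.1% lower, against 14.8 and 38.3% of 11669 protein-coding genes. The share called higher was larger still for 407 long intergenic non-coding RNA genes (34.4% higher, 28.5% lower). It was also larger for 463 genes without a GENCODE 29 entry (32.8% higher, 25.1% lower). Of 229 pseudogenes, 17.9% were higher and 31.0% lower.

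Whether the response of the oeNC cells differed from that of shScramble cells was tested as the difference of the 2 responses over 12 libraries. A shift between the tables that is common to both lines cancels in this term, and the 2 responses share no library. Of 14730 genes tested, limma called 19, or 0.129%: 10 with a higher difference (0.0679%) and 9 with a lower one (0.0611%). At an unadjusted p under 0.05 there were 2167 genes (14.7%). The count fell to 8 without oeNC_MPP replicate 1, shScramble replicate 1 or shScramble replicate 2, to 9 and 10 without shScramble_MPP replicate 2 and 3, and to 11 and 12 without oeNC replicate 3 and oeNC_MPP replicate 2. Without oeNC_MPP replicate 3 it was 56, with a trend on transcript GC content removed 230, and with all 24 libraries in the fit 247. The calls of BHLHE40, SLC2A3, TSC22D3, CTNS and SLC25A51 were kept under every alternative run. DDIT4 lost its call only when genes of low level were let in. The other 8 named genes, LBH, CSRNP1, CA8, PROCR, NAGPA, LBHD1, TIMM10B and NQO1, all lost their calls without oeNC_MPP replicate 1, and likewise without shScramble_MPP replicate 2 or 3 or shScramble replicate 1 or 2.

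The largest difference was that of BHLHE40, a transcription repressor of the hypoxia and circadian systems. It had 14.6, 13.2 and 18.6 TPM in oeNC_MPP, against 3.58, 4.0 and 4.93 TPM in oeNC. In the other line it had 9.09, 8.83 and 8.47 TPM in shScramble_MPP, against 11, 11.2 and 15.4 TPM in shScramble (difference 2.12 ± 0.21, adjusted p = 0.00181). BHLHE40 was thus higher in all oeNC libraries with MPP+ than in those without, and lower in all shScramble libraries with MPP+ than in those without. SLC2A3 had 13.2, 12.5 and 12.4 TPM in shScramble_MPP, against 12.7, 11.7 and 13.7 TPM in shScramble, with no change on average, and its difference was 1.59 ± 0.18, adjusted p = 0.00309. DDIT4 had 275, 260.2 and 266 TPM in shScramble_MPP, against 89.2, 87.1 and 130.3 TPM in shScramble (difference 1.50 ± 0.20, adjusted p = 0.00853). TSC22D3, a glucocorticoid-induced leucine zipper protein, had 539, 507 and 476 TPM in oeNC_MPP, against 82.7, 69.6 and 80.8 TPM in oeNC. In the other line it had 452, 419 and 427 TPM in shScramble_MPP, against 137, 137 and 136 TPM in shScramble (difference 1.04 ± 0.10, adjusted p = 0.00181). For DDIT4 and TSC22D3, the oeNC libraries lay above the shScramble libraries with MPP+ and below them without it.

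On the lower side, the difference of SLC25A51 was -1.35 ± 0.15, adjusted p = 0.00309. CTNS, the lysosomal cystine exporter, had 11.5, 10.6 and 10.3 TPM in oeNC_MPP, against 31.2, 25.4 and 30.0 TPM in oeNC. In the other line it had 22.1, 18.7 and 21.4 TPM in shScramble_MPP, against 22.5, 22.7 and 23.9 TPM in shScramble (difference -1.19 ± 0.14, adjusted p = 0.00309), and its groups were apart in both lines, by less in the shScramble cells. NAGPA, which uncovers the mannose 6-phosphate tag of lysosomal enzymes, had a difference of -1.12. TIMM10B, of the import machinery of the inner mitochondrial membrane, had a difference of -0.81. NQO1, a quinone reductase under NRF2, changed by 0.21 in oeNC cells, which was not called, and by 0.97 in shScramble cells (difference -0.76). The remaining named genes were LBH, CSRNP1, CA8 and PROCR, with differences of 1.10, 1.03, 0.81 and 0.80, and LBHD1, with -1.04. PROCR, LBHD1 and NQO1 were not called under median-of-ratios scaling or quantile normalization, nor LBH and CSRNP1 under the second. RPL3, with a difference of 0.47, was also called. The median change of the 7 complex I mRNAs of mitochondrial DNA was -3.48 in oeNC and -3.33 in shScramble. That of the 36 ATF4 targets was 0.94 in oeNC and 1.05 in shScramble, and 1 of them, DDIT4, had a called difference.

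**Figure D5:**
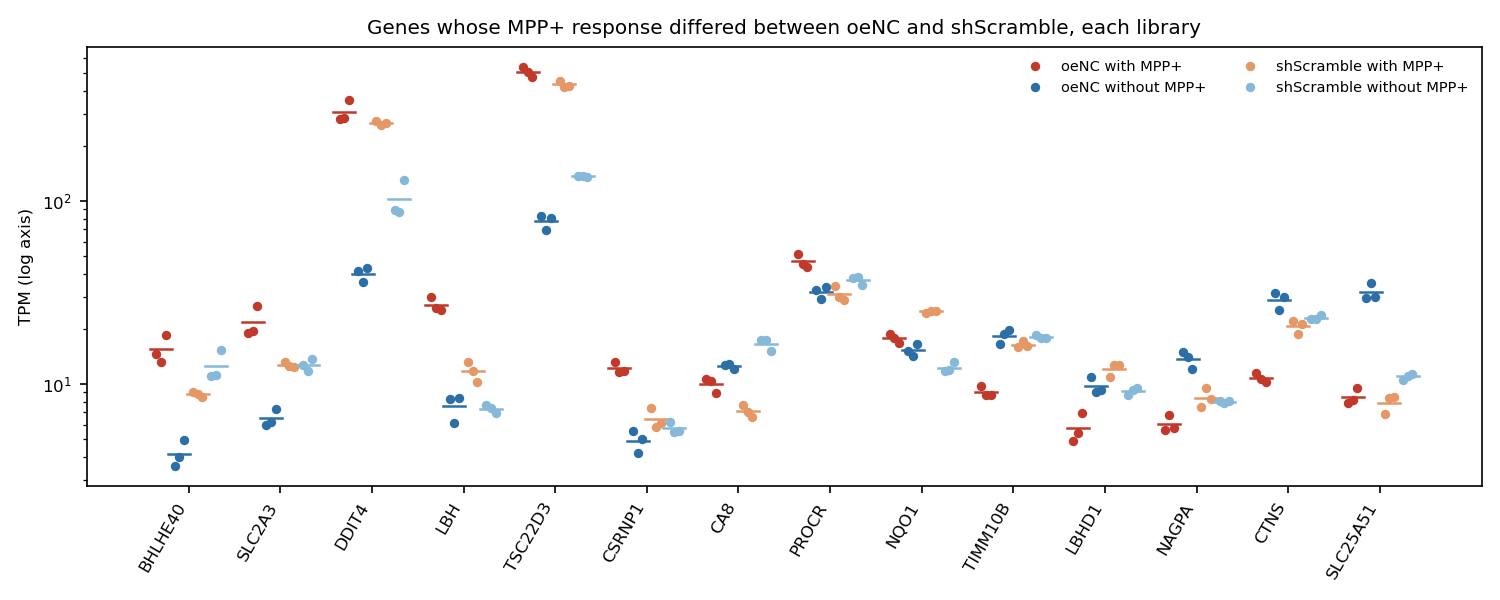
TPM (log axis) of the 14 named genes whose response to MPP+ differed between the lines, in each library of 4 groups, from left to right oeNC_MPP, oeNC, shScramble_MPP and shScramble, with the mean of 3 libraries as a line. Genes run from the highest difference, 2.12 for BHLHE40, to the lowest, -1.35 for SLC25A51.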

How the data were processed

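The authors deposited TPM, 1 table for libraries with MPP+ and 1 for those without. The submitters' processing notes name GRCm38, mm10 and GRCh38 with no role. The aligner and annotation, and whether strand was used, were not given in the sources used here. Per the labels' protocols, libraries were strand-specific and made from oligo-dT-captured mRNA. Rows without a gene identifier (42 and 25) were left out. Each library was rescaled to 1000000 over shared identifiers. Genes at 1 TPM or more in 3 libraries were tested on log2(TPM + 1) with limma 3.58.1 (R 4.3.3, trended empirical Bayes, Benjamini-Hochberg adjusted p under 0.05 over all genes), for oeNC_MPP over oeNC in 6 libraries and for the difference of responses in 12. The fit was checked on simulated data. Fold changes on this scale understate those of low genes. SEs are limma's, and SDs are over 3 libraries.

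The 49 gene lists, the members and the tests were chosen with earlier results of these data known. Named were fixed genes of the pathways, up to 12 genes per direction with the largest change (5 TPM or more, an official symbol, groups apart), up to 3 per direction and list, and up to 8 per direction from the difference; other members are named where a whole list or its promoters are described. Alternatives were other pseudocounts, filters, scalings and variance models, a replicate block, GC and length trends (natural spline, 5 degrees of freedom), all 24 libraries, and leaving out each library. After seeing the data, fits with protein-coding genes only, without mitochondrial DNA-encoded and ribosomal protein genes, and without genes near 0 throughout 1 table were added. Python 3.11.15, pandas 2.3.3, numpy 2.4.6 and matplotlib 3.10.9 were used. Gene types and mitochondrial positions came from GENCODE 29. Some genes of the lists are not reported here.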

Additional observations from a re-analysis of the deposited data

Results flagged for a closer look

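The response to MPP+ differed between oeNC and shScramble cells, by the interaction term of limma over 12 libraries at an adjusted p under 0.05, for 14 named genes. Differences are given as the response in oeNC minus that in shScramble, on the log2(TPM + 1) scale. They were positive for BHLHE40 (2.12), SLC2A3 (1.59), DDIT4 (1.50), LBH (1.10), TSC22D3 (1.04), CSRNP1 (1.03), CA8 (0.81) and PROCR (0.80). They were negative for SLC25A51 (-1.35), CTNS (-1.19), NAGPA (-1.12), LBHD1 (-1.04), TIMM10B (-0.81) and NQO1 (-0.76). The calls of LBH, CSRNP1, CA8, PROCR, NAGPA, LBHD1, TIMM10B and NQO1 were lost when single libraries were left out, and those of the other 6 genes were not. In groups of 3 libraries, single libraries that stand apart were not looked for.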

How the results depend on the processing

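The number of genes called in the response stayed within 1.5 times 7330 under every alternative run, from 5262 with a filter of 5 TPM to 10177 with library weights (whose estimation stopped before it converged), and from 5544 to 7139 when 1 library was left out. The number called higher was 3533 under median-of-ratios scaling and 3460 under quantile normalization, against 2274. Median-of-ratios scaling moves the median by 0.20; the cause was not tested. The 19 calls of the difference became 11 without a filter on low values, 35 with a filter of 5 TPM, 29 with a robust variance model, 230 with a trend on transcript GC content removed, 234 with GC and length trends removed, 247 with all 24 libraries in the fit, and 8 to 56 when 1 library was left out; the cause was not tested. Same-numbered libraries of oeNC_MPP and oeNC correlated at -0.12, 0.14 and 0.03 in their deviations. Differently numbered ones ranged from -0.27 to 0.26. No pairing by number was seen, but with 3 libraries a group these correlations cannot exclude one. A replicate block gave 7045 calls in the response and 75 in the difference, and with the GC trend removed 7336 and 244. TXNIP, not called, was 0.20, 0.16 and 0.14 under median-of-ratios scaling, quantile normalization and with mitochondrial DNA-encoded and ribosomal protein genes left out, and -0.10 to 0.046 when 1 library was left out. CHCHD2 was 0.12 under quantile normalization and ATF5 -0.0085 with GC and length trends removed. Depth is unknown, and 3 libraries a group limit the precision.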
